A study of Mus musculus with 8 samples.

Results

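A set of imprinted genes of the fetal growth network was examined in fetal hearts with and without Dio3, the gene of the type 3 deiodinase that clears thyroid hormone. The 10 genes are H19, Peg3, Mest, Plagl1, Grb10, Ndn, Peg10, Sgce, Zim1 and Nnat. They were chosen by symbol, and all 10 of 10 were found among the 26590 gene symbols of the deposited table, under 29 transcript rows. The samples were hearts of 4 Dio3+/+ and 4 Dio3-/- fetuses on a C57BL/6J background, 1 mouse per heart, whose total RNA was depleted of rRNA and sequenced. The genotype was carried by every fetal tissue, not by the heart alone. The titles of the labels give E13.5 for all 8 hearts. The age field gives E18.5 for 2 of them, Dio3-/- hearts 3 and 4, and the Methods give E14.5. The table gives a mean for each genotype and no value for a single heart, so these 2 hearts could not be left out or set apart.

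Imprinted genes are expressed mainly from the copy inherited from 1 parent. Many of them set fetal and placental growth, and a group of them is expressed together in mesodermal tissues of the fetus and declines after birth. Of the 10 genes, H19, Grb10 and Zim1 are expressed mainly from the maternal copy in most fetal tissues. Mest, Plagl1, Peg3, Ndn, Peg10, Sgce and Nnat are expressed from the paternal copy. Paternally expressed members often promote growth and maternally expressed ones often restrain it, with exceptions. Dio3 itself is imprinted and lies in a different imprinted domain.

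Of the 10 genes, 1 passed the test (an adjusted P value below 0.05 in limma). Mest was lower in Dio3-/- hearts, and none of the 10 was higher. By the same rule, 0.382% of all 14657 tested genes were lower, 1.91% were higher and 2.29% differed in either direction. The remaining 9 genes did not pass the test. Mest fell by 17.1%, from a mean of 902 ± 45.1 RPKM (SD, n = 4) in Dio3+/+ to 748 ± 22.4 RPKM (SD, n = 4) in Dio3-/- hearts. RPKM are reads scaled to the length of the transcript and to the mapped reads of the library, so levels can be compared between genes. H19, Grb10 and Sgce had genotype means within a few percent of each other. Peg3, Nnat and Peg10 had lower means in Dio3-/- hearts and a wide spread between Dio3+/+ hearts. In bulk tissue, fewer cells of a type and less RNA per cell cannot be told apart.

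RefSeq promoter windows (GRCm38.p6, from 250 bases before to 50 bases after a start site) were found for 7 of the 10 genes. H19, Peg10 and Sgce have no entry in that table. The windows of 4 genes are printed because they hold, in capitals, the hexamer TGCCGC (or its complement GCGGCA on the other strand), the core recognized by ZFP57, a zinc finger protein that keeps imprints after fertilization.
Mest, second window, chr6:30737800-30738099, plus strand: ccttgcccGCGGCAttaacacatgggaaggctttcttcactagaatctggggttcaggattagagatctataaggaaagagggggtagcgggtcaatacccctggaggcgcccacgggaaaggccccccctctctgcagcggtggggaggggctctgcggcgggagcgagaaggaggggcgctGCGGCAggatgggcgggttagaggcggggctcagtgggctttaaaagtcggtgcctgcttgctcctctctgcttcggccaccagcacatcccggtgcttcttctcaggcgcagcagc
Plagl1, chr10:13090582-13090881, plus strand: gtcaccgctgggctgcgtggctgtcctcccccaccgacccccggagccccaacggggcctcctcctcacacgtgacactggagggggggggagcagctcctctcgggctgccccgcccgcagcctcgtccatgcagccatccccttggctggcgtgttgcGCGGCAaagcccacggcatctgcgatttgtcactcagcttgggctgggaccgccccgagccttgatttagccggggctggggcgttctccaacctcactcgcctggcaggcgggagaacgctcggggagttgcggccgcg
Nnat, chr2:157559828-157560127, plus strand: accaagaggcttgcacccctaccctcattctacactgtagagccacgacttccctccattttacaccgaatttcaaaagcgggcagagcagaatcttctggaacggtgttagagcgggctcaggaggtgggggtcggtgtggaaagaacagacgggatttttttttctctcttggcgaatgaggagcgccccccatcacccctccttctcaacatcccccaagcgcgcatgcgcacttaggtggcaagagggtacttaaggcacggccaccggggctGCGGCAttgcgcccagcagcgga
Zim1, chr7:6696383-6696682, minus strand: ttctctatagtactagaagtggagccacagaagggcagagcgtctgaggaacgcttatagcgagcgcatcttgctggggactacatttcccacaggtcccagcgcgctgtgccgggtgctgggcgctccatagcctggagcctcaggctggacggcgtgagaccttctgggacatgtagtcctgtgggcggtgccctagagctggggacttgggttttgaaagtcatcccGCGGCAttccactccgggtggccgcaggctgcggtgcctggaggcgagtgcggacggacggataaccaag
The hexamer was found in windows of 5 of the 7 genes, the 4 printed and Grb10. Counted by window, it was in 6 of 10, against 11.6% of all 32851 windows of this length in the table. The 6 include windows of Mest that start at bases 30737800 and 30737803 and so are nearly the same sequence. The hexamer holds a CpG (a C followed by a G). The windows of the 7 genes hold 8 to 45 CpG, against a median of 7 over all windows. A comparison with windows of like CpG content was not made. The hexamer was found 2 times in the Mest window printed and 1 time in each of the other windows printed. The first Mest window, at an upstream start site, holds 8 CpG and no hexamer, against 17 CpG in the second. Windows of Peg3 and Ndn hold no hexamer. The motif GCCATNTT, the core bound by YY1, was searched on both strands and was in none of the members' windows, against 6.05% of all windows. The direct repeat of AGGTCA with 4 bases between the copies, a form of the thyroid hormone response element, was in none of them either, against 0.0152% of all windows. A match describes these letters only, and no match says nothing about a factor.

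The Dio3 transcript gave no check of the genotypes. The wild type mean was 0.35 RPKM (CV 1.23) and the mutant mean 0.13 RPKM (CV 0.76), both too low for the test, where CV, the coefficient of variation, is the SD over the mean. All 10 cardiomyocyte markers were present, led by Actc1, the cardiac actin, at 4778 and 5638 RPKM, and Myl2, the ventricular myosin light chain, at 3432 and 4058 RPKM. These markers summed to 12510 RPKM in the wild type and to 14880 RPKM in the mutant, and Myh6 and Ryr2 rose. The design text calls the hearts male, and both Xist (35.6 and 40.0 RPKM) and Y-linked Eif2s3y (9.38 and 7.29 RPKM) were present in both genotypes. The CV of Xist was 0.99 and 0.55, and that of Eif2s3y was 1.04 and 1.46. The table gives no depth for single hearts.

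The mean and SD of 4 values also limit the values themselves. The highest of 4 hearts lies between 0.5 and 1.5 SD above the mean and the lowest lies between 0.5 and 1.5 SD below it. These limits were used in place of single values to say whether the hearts of the genotypes can overlap, with the rounding of the CV (0.005) allowed for. The limits printed in RPKM take each CV as deposited, without that allowance, so they can be slightly too narrow. All these limits were chosen after the data were seen.

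Among the maternally expressed genes, H19 was the most abundant of the 10. H19 is a long noncoding RNA that shares its enhancers with the growth factor gene Igf2 and restrains growth. It averaged 2436 ± 73.1 RPKM (SD, n = 4) in Dio3+/+ and 2359 ± 94.3 (SD, n = 4) in Dio3-/- hearts, rank 22 among tested genes in both. The lowest Dio3+/+ heart lay between 2326 and 2399 RPKM, and the highest Dio3-/- heart between 2406 and 2500 RPKM. So the genotypes overlapped on these limits, and with the rounding of the CV the overlap was undecided. The difference in log2(RPKM + 0.5) was −0.05 (95% interval −0.19 to 0.10, adjusted P = 0.754 by limma).

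Grb10, an adaptor that binds the insulin and IGF1 receptors and damps their signals, had 4 transcript rows. The highest averaged 449 ± 22.5 RPKM (SD, n = 4) in Dio3+/+ and 427 ± 8.55 (SD, n = 4) in Dio3-/- hearts. The log2 difference was −0.07 (95% interval −0.19 to 0.04, adjusted P = 0.5 by limma). The lowest of the rows, with means of 153 and 154 RPKM, had a log2 difference of 0.007 and so a sign opposite to the others. Zim1, a zinc finger gene next to Peg3, averaged 26.0 ± 4.42 RPKM (SD, n = 4) in Dio3+/+ and 22.0 ± 0.22 (SD, n = 4) in Dio3-/- hearts. With the CV of 0.01 taken as deposited, its Dio3-/- hearts lay between 21.7 and 22.35 RPKM, a narrow range. Its Dio3+/+ hearts reached a highest value between 28.2 and 32.6 RPKM and a lowest between 19.35 and 23.8 RPKM. The log2 difference of Zim1 was −0.23 (95% interval −0.46 to −0.003, unadjusted P = 0.0474 and adjusted P = 0.26 by limma).

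Of the paternally expressed genes, Mest was the most abundant and the only 1 of the 10 genes whose hearts could not overlap between genotypes. Mest encodes a protein of the hydrolase fold and is a marker of growing mesoderm. Its lowest Dio3+/+ heart lay between 834.7 and 879.9 RPKM, and its highest Dio3-/- heart between 759 and 781 RPKM. Hearts that cannot overlap, with Dio3-/- lower, were found for 0.484% of all tested genes, and in either direction for 3.95%. The log2 difference was −0.27 (standard error 0.06, 95% interval −0.40 to −0.14, adjusted P = 0.0465 by limma). The other transcript rows of Mest had means of 898 and 744 RPKM and of 857 and 709 RPKM, with adjusted P = 0.0396 and 0.0381 by limma. Of all rows of the table tested, 2.15% passed. The 3 Mest rows describe transcripts of 1 gene, so they are not independent. The call was near the threshold. The adjusted P value of the highest row was 0.113 without a filter on low values, 0.133 in a test that used the spread of that row alone and 0.0736 with each CV raised by its rounding error (0.005).

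Plagl1, a zinc finger transcription factor that acts on other genes of the network, came next in unadjusted P value. Its highest row averaged 311 ± 21.8 RPKM (SD, n = 4) in Dio3+/+ and 268 ± 13.4 (SD, n = 4) in Dio3-/- hearts. The log2 difference was −0.21 (95% interval −0.36 to −0.07, unadjusted P = 0.00712 and adjusted P = 0.104 by limma). The lowest Dio3+/+ heart lay between 278.7 and 300.5 RPKM and the highest Dio3-/- heart between 275 and 288 RPKM, so overlap could not be decided. Its 6 rows fell into a higher and a lower group. The 4 rows with Dio3+/+ means from 237 to 311 RPKM had log2 differences of −0.21, and the rows with means of 105 and 95.5 RPKM had log2 differences of −0.14. None of the 6 rows passed the test, with the lowest adjusted P = 0.104 and the highest 0.244 by limma, and 6 of 6 had an unadjusted P value under 0.05. By their highest row, 19.7% of all tested genes had such a P value. The 6 rows describe transcripts of 1 gene, so they are not independent. Ndn, which encodes necdin, a MAGE family protein that restrains cell division, averaged 37.8 ± 5.66 RPKM (SD, n = 4) in Dio3+/+ and 33.0 ± 0.66 (SD, n = 4) in Dio3-/- hearts. Its log2 difference was −0.19 (95% interval −0.40 to 0.01, adjusted P = 0.304 by limma). Like Zim1, it had a narrow range in Dio3-/- hearts. With its CV as deposited, the lowest was at least 32.0 RPKM and the highest at most 34.0 RPKM. Its lowest Dio3+/+ heart lay between 29.3 and 34.9 RPKM and its highest between 40.6 and 46.3 RPKM.

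Peg3, a large zinc finger gene that affects growth and maternal care, averaged 111 ± 37.8 RPKM (SD, n = 4) in Dio3+/+ and 90.9 ± 7.27 (SD, n = 4) in Dio3-/- hearts. Its highest Dio3+/+ heart lay between 129.9 and 167.7 RPKM and its lowest between 54.4 and 92.2 RPKM. All Dio3-/- hearts lay between 80.0 and 101.8 RPKM, so the genotypes overlapped. The log2 difference was −0.29 (95% interval −0.74 to 0.17, adjusted P = 0.494 by limma). Nnat encodes neuronatin, a small membrane protein of the endoplasmic reticulum, and averaged 59.1 ± 29.0 RPKM (SD, n = 4) in Dio3+/+ and 42.5 ± 8.92 (SD, n = 4) in Dio3-/- hearts. At least 1 Dio3+/+ heart was above 73.6 RPKM and at least 1 was below 44.6 RPKM, while no Dio3-/- heart was above 55.9 RPKM. The log2 difference was −0.47 (95% interval −1.16 to 0.21, adjusted P = 0.453 by limma).

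Peg10 and Sgce lie head to head with 101 bases between them in the RefSeq annotation, and they differed in both spread and direction. Peg10, a gene derived from a retrotransposon and needed for the placenta, averaged 45.5 ± 30.0 RPKM (SD, n = 4) in Dio3+/+ and 31.5 ± 5.04 (SD, n = 4) in Dio3-/- hearts. At least 1 Dio3+/+ heart was above 60.5 RPKM and at least 1 was below 30.5 RPKM, while all Dio3-/- hearts lay between 23.9 and 39.1 RPKM. The log2 difference was −0.52 (95% interval −1.39 to 0.34, adjusted P = 0.516 by limma). Sgce, which encodes ε-sarcoglycan, a membrane protein of the dystrophin complex, averaged 19.3 ± 1.16 RPKM (SD, n = 4) in Dio3+/+ and 19.9 ± 0.80 (SD, n = 4) in Dio3-/- hearts. Its log2 difference was 0.04 (95% interval −0.08 to 0.16, adjusted P = 0.746 by limma), and its hearts overlapped in all 6 rows. The difference between Peg10 and Sgce in their response was not tested.

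**Figure D1:**
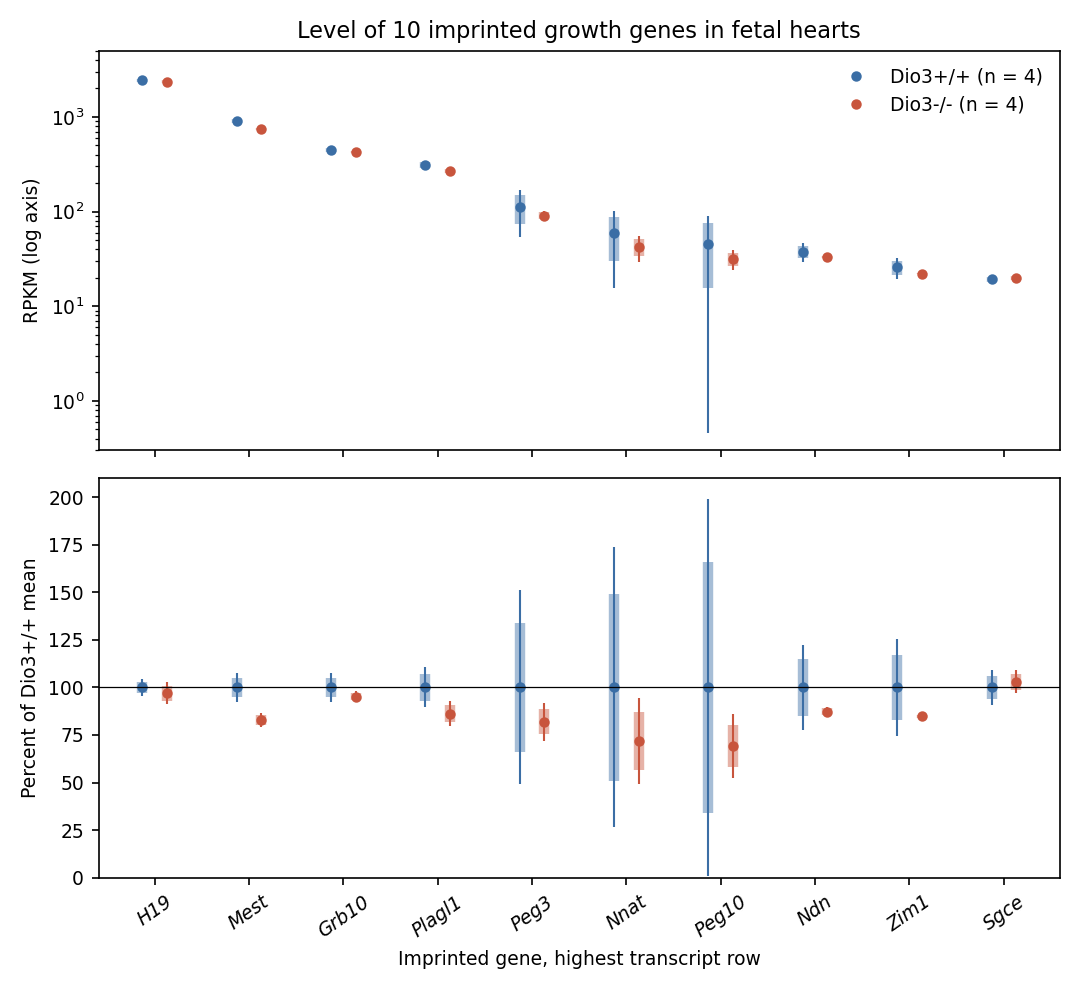
Level of the 10 genes in hearts of each genotype (n = 4 each), in RPKM on a log axis above and as a percent of the Dio3+/+ mean below. Points are the authors' genotype means and thick bars are 1 SD. Thin lines span the range in which all 4 hearts must lie, with each CV taken as deposited. The ranges of Mest are apart, those of Sgce and H19 overlap around 100%, and Peg10, Nnat and Peg3 have long Dio3+/+ lines.

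The order of levels in Dio3+/+ hearts was H19, Mest, Grb10, Plagl1, Peg3, Nnat, Peg10, Ndn, Zim1 and Sgce. H19 was 2.7 times as high as Mest, and Mest was 2.01 times as high as Grb10. Between Peg3 and Nnat, Nnat and Peg10, and Peg10 and Ndn, the ranges of 1 SD around the means overlapped. Both genes of a pair were measured in the same hearts, so this overlap does not decide whether they differed. In Dio3-/- hearts the order was the same except that Ndn and Peg10 changed places, with 33.0 and 31.5 RPKM and overlapping ranges. The ratio of H19 to Mest was 3.15 in Dio3-/- hearts.

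**Figure D2:**
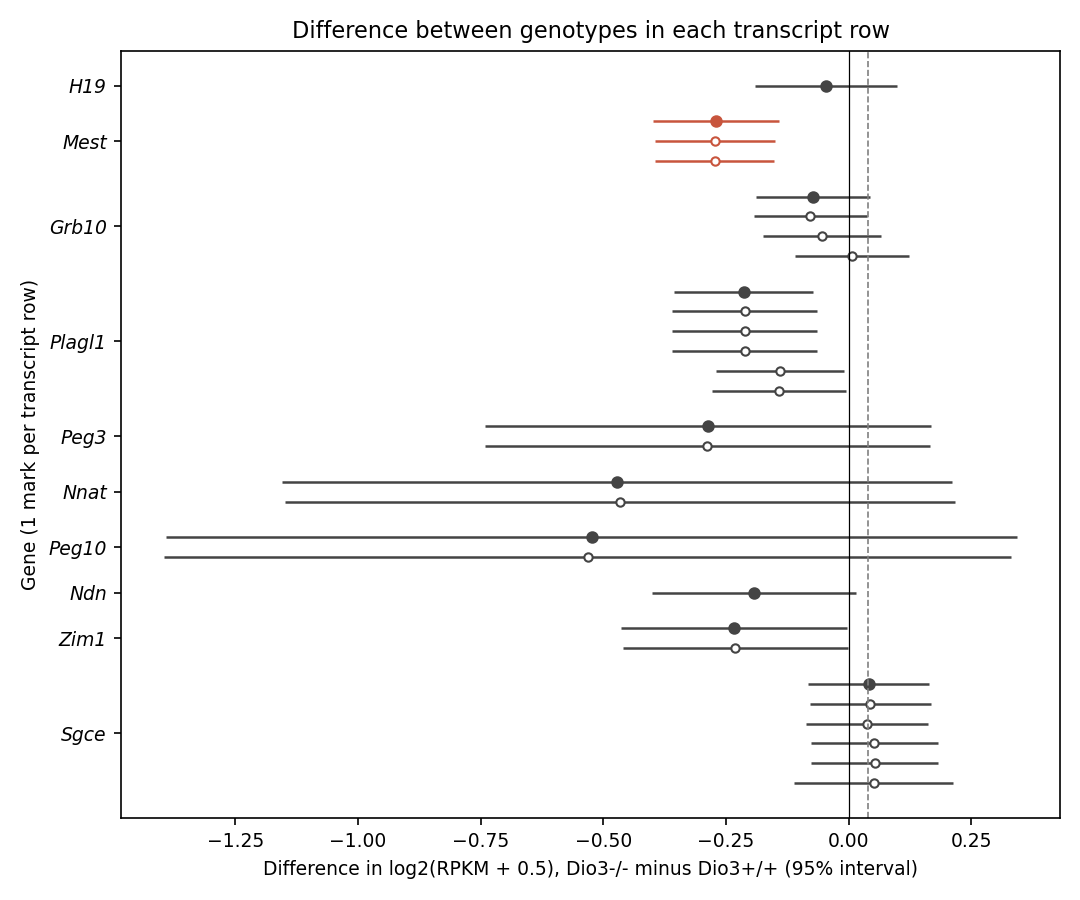
Difference between genotypes in log2(RPKM + 0.5) for each of the 29 transcript rows, with 95% intervals from limma. Filled points are the highest row of a gene, open points its other rows, red marks rows with an adjusted P value under 0.05 and the dashed line is the median of all tested genes (0.04). The 3 Mest rows are the red ones, and the intervals of Peg10, Nnat and Peg3 are the widest.

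Over the 10 genes, 9 had a log2 difference below 0, and Sgce was the exception. The median was −0.22, against 0.04 over all 14657 tested genes, of which 36.1% were below 0. An unadjusted P value under 0.05 with a lower level in Dio3-/- hearts was found for 3 of the 10 genes (Mest, Plagl1 and Zim1) and for 4.46% of all tested genes. With both genotypes centered on the median ratio of all rows, which lowers each log2 difference by 0.04, again 9 of 10 were below 0 and Sgce stood at 0.003. After the same centering, 7246 of the 14657 tested genes were below 0. These counts describe the genes chosen and carry no test. The genes are also not independent, since Peg3 and Zim1 share a cluster, as do Peg10 and Sgce.

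The spread between hearts split the genes. Dio3+/+ hearts had a larger CV than Dio3-/- hearts in 9 of the 10 genes, and in 65.4% of all tested genes. In H19, Mest, Grb10, Plagl1 and Sgce the CV was at most 0.07 in Dio3+/+ and 0.05 in Dio3-/- hearts. In Ndn, Zim1, Peg3, Nnat and Peg10 it was 0.15, 0.17, 0.34, 0.49 and 0.66 in Dio3+/+ hearts. In Dio3-/- hearts the same 5 genes had a CV of 0.02, 0.01, 0.08, 0.21 and 0.16. A Dio3+/+ CV at least as large as that of Peg10 was found for 1.77% of tested genes, of Nnat for 2.86% and of Peg3 for 5.31%. A Dio3-/- CV at least as large as that of Zim1 was found for 99.9%, which puts its Dio3-/- hearts among the closest to each other. The 5 genes were grouped after their values were seen, and the difference in spread was not tested.

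Markers of several cell types and tissues also differed in spread between genotypes. The genotype means and CVs do not show whether they varied together with the 10 genes from heart to heart. All 10 fibroblast and mesenchyme markers had a larger CV in Dio3+/+ than in Dio3-/- hearts, with medians of 0.445 and 0.065 and summed levels of 847.5 and 737 RPKM, none at 0, and none passed the test. Col3a1 and Col1a1, which encode fibrillar collagens, had Dio3+/+ CVs of 0.39 and 0.42, against 0.02 and 0.01 in Dio3-/- hearts. Of the 8 skeletal muscle markers, 6 were tested, and all 6 had a larger CV in Dio3+/+ hearts. Over all 8 the level summed to 37.4 RPKM in wild type and to 9.18 RPKM in mutant hearts, with none at 0, and none passed the test. Myh3, the embryonic myosin heavy chain of skeletal muscle, had means of 14.2 RPKM (CV 1.61) and 0.72 RPKM (CV 0.99), and Myog, a myogenic transcription factor, 9.78 RPKM (CV 1.56) and 1.17 RPKM (CV 0.86). Of the 10 bone and cartilage markers, 6 were tested, all with the larger CV in Dio3+/+ hearts. Over all 10 the level summed to 69.0 RPKM in wild type and to 39.9 RPKM in mutant hearts. Ibsp, which encodes bone sialoprotein, had means of 11.25 RPKM (CV 1.54) and 0.03 RPKM (CV 0.59) and passed the test (adjusted P = 0.033 by limma). It was tested through its Dio3+/+ mean alone, and whether its hearts overlapped was not decided. No bone or cartilage marker passed in the test that used the spread of single rows. A larger Dio3+/+ CV was not particular to these lists. It was found in 9 of the 10 cardiomyocyte markers (median CVs of 0.145 and 0.075), 7 of the 8 endothelial markers and 65.4% of all tested genes. Of the tested markers, it was found in 2 of 6 for epicardium, 0 of 4 for autonomic neurons and glia and 0 of 2 for lung epithelium. The endothelial markers had narrow spreads, with median CVs of 0.075 and 0.04. The part of mesenchyme, muscle or bone in the levels of Peg3, Nnat, Peg10, Ndn and Zim1 was not tested.

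Liver and red cell markers had other patterns of level and spread. The 8 liver markers summed to 16.0 RPKM in wild type and to 108 RPKM in mutant hearts, none at 0, with median CVs of 0.99 and 1.12. None passed the test, and 8 of 8 had an unadjusted P value under 0.05 by limma, against 19.7% of all tested genes in either direction. This count is no support for a difference. Ttr, Fgb and Ahsg were tested through their Dio3-/- means alone, the genotype where they were higher. The SD in log2 is only approximate at such wide spreads, and whether the hearts overlapped was not decided for any of the 8. The 7 red cell markers in the table had summed levels of 47120 and 16300 RPKM, with median CVs of 0.33 and 0.53. All 7 were lower in Dio3-/- hearts with an unadjusted P value under 0.05 by limma, against 4.46% of all tested genes. Of these, 1 passed the test, the embryonic globin gene Hbb-bh1 (adjusted P = 0.0468 by limma). Whether the hearts overlapped was not decided for any of the 7. In Dio3-/- hearts the CVs of liver markers ran from 0.89 to 1.26 and those of red cell markers from 0.46 to 0.61, against 0.01 to 0.21 for the 10 genes. The part of liver and blood in the levels of the 10 genes was not tested. The Dio3-/- CVs include the 2 hearts whose age field gives E18.5, and Mest had a Dio3-/- CV of 0.03, H19 of 0.04 and Plagl1 of 0.05.

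**Figure D3:**
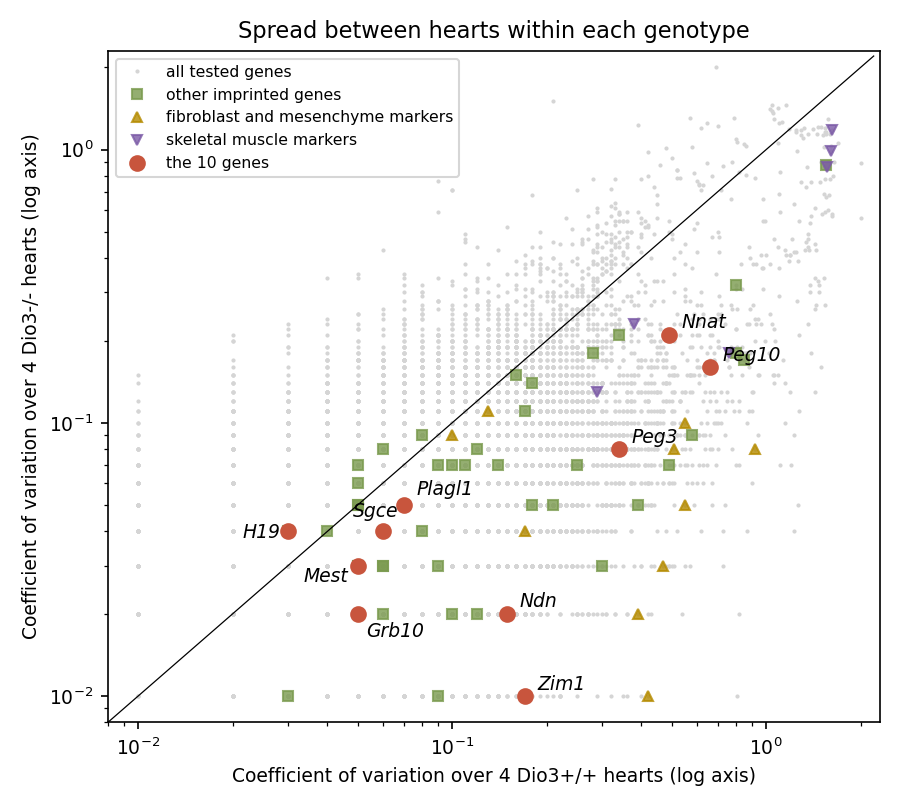
Coefficient of variation over 4 Dio3+/+ hearts against that over 4 Dio3-/- hearts, both on log axes, for all tested genes (grey, those with a value of 0 not drawn), the 10 genes (red), other imprinted genes and markers of mesenchyme and skeletal muscle. The line marks equal spread. Peg10, Nnat, Peg3, Zim1 and Ndn have the largest Dio3+/+ values of the 10 and lie below the line, as do the mesenchyme markers, with Tcf21 and Fbn1 close to it, while H19 lies above it.

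Genes beside the 10 in their imprinted clusters were compared next. Of 43 genes listed as neighbors, 38 were in the table and 30 were tested. No neighbor passed the test by limma or by the test on single rows, and 7 had an unadjusted P value under 0.05 by limma, 4 lower and 3 higher in the mutant. Over all tested genes, 19.7% had such a P value. Their median log2 difference was −0.04. In the cluster of Mest, all 3 tested neighbors had negative differences. Copg2, a coat protein gene of vesicle transport, had means of 42.2 RPKM (CV 0.04) and 37.3 RPKM (CV 0.04), a log2 difference of −0.18 (95% interval −0.28 to −0.07, adjusted P = 0.0871 by limma). Copg2 overlaps Mest in the RefSeq annotation, and the counting is not stated to use strand, so reads from the shared stretch cannot be told apart. Klf14, a transcription factor gene without introns, had a log2 difference of −0.38 and the carboxypeptidase gene Cpa4 one of −0.28, with adjusted P = 0.216 and 0.327 by limma.

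The cluster of Peg3 and Zim1 gave a like picture. Usp29, a ubiquitin protease gene that lies 96 bases from Peg3, had means of 7.95 RPKM (CV 0.21) and 6.46 RPKM (CV 0.05), a log2 difference of −0.28 (adjusted P = 0.265 by limma). Apeg3, which lies inside Peg3 and is antisense to it, had means of 170 RPKM (CV 0.34) and 134.5 RPKM (CV 0.09), and its reads cannot be told apart from those of Peg3 either. Beside H19, Igf2, the main fetal growth factor, had means of 2131 RPKM (CV 0.05) and 1874 RPKM (CV 0.03). Its log2 difference was −0.19 (95% interval −0.33 to −0.04, unadjusted P = 0.0176 and adjusted P = 0.159 by limma). Farther along, Lsp1, an actin-binding protein gene of white cells, had a log2 difference of 0.24 and Mrpl23, a mitochondrial ribosomal protein gene, one of 0.12, with adjusted P = 0.101 and 0.435 by limma. Tnnt3, which encodes the troponin T of fast skeletal muscle, had the largest difference of the cluster and a wide spread, with means of 4.49 RPKM (CV 0.87) and 3.04 RPKM (CV 0.10) and a log2 difference of −0.50 (95% interval −1.51 to 0.52, adjusted P = 0.612 by limma).

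In the other clusters, neighbors had differences in both directions. Beside Plagl1, the log2 differences of Phactr2, Ltv1, Sf3b5 and Stx11 ran from −0.08 to 0.18. Beside Grb10, Ddc, the aromatic amino acid decarboxylase gene whose imprinted transcript is known from the fetal heart, had means of 28.7 RPKM (CV 0.12) and 33.1 RPKM (CV 0.08). Its log2 difference was 0.21 (95% interval 0.01 to 0.41, adjusted P = 0.251 by limma), opposite in sign to that of Grb10. Cobl, Fignl1 and Ikzf1 in the same cluster had log2 differences of −0.11, 0.11 and 0.19. In the cluster of Ndn, Snrpn, a splicing protein gene, had a log2 difference of −0.06 and Ube3a, a ubiquitin ligase gene, one of 0.05, and the hearts overlapped in all 5 tested neighbors. Peg12, another paternally expressed gene of the cluster, averaged 3.90 RPKM (CV 0.34) and 3.35 RPKM (CV 0.21), a log2 difference of −0.19 (adjusted P = 0.676 by limma), beside −0.19 for Ndn. Snurf, which shares its transcripts with Snrpn, had a log2 difference of −0.06 and Atp10a one of 0.04. Magel2, the MAGE gene next to Ndn, named after its values were seen, was below 1 RPKM in both genotypes, with 0.59 RPKM (CV 1.03) and 0.20 RPKM (CV 0.34). Beside Peg10 and Sgce, Casd1, Ppp1r9a, Pon3 and Tfpi2 had differences from −0.04 to 0.08, Pon2 one of 0.21 and Asb4, with a Dio3+/+ CV of 0.39, one of −0.20. Blcap, in which Nnat lies, had means of 10.4 RPKM (CV 0.12) and 9.59 RPKM (CV 0.02), with a log2 difference of −0.12 (adjusted P = 0.472 by limma), and Ctnnbl1 beside it had one of 0.03. The Dio3+/+ CV of Nnat was 0.49.

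**Figure D4:**
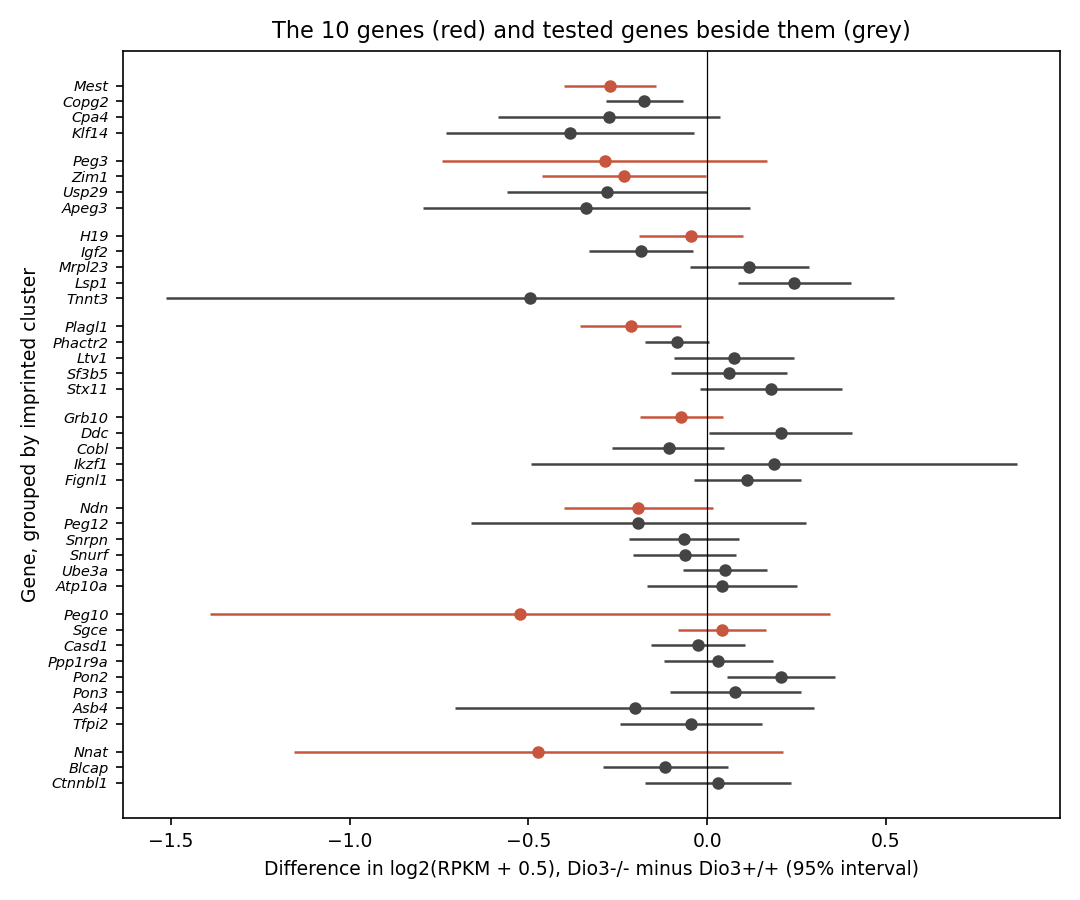
Difference between genotypes in log2(RPKM + 0.5) with 95% intervals from limma for the 10 genes (red) and the 30 tested neighbors (dark grey), grouped by imprinted cluster. In the clusters of Mest and of Peg3 and Zim1 every point lies left of 0, and in the other clusters points lie on both sides. Klf14 and Cpa4, beside Mest, had means near the limit of 1 RPKM, and neighbors too low for the test are not drawn.

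A microRNA lies inside Mest and another inside H19 in the RefSeq annotation. Their mature sequences (GRCm38.p6) are shown with the seed, bases 2 to 8, in capitals, because the host genes are the most abundant of the paternally and of the maternally expressed members.
miR-335-5p, chr6:30741314-30741336, plus strand: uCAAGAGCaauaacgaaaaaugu
miR-335-3p, chr6:30741354-30741375, plus strand: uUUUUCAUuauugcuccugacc
miR-675-5p, chr7:142577112-142577133, minus strand: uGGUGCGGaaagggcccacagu
miR-675-3p, chr7:142577078-142577099, minus strand: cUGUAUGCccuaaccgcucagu
The 4 seeds differ from each other. The row of Mir335, the precursor in Mest, averaged 0.16 RPKM (CV 1.16) in wild type and 1.09 RPKM (CV 1.46) in mutant hearts. Its log2 difference was 1.27 (95% interval −0.09 to 2.62, adjusted P = 0.299 by limma), with a spread wider than the mean. The row covers a short precursor and does not measure the mature microRNA. No row of the precursor in H19 was analysed here.

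Other imprinted genes were taken from a list of 52, imprinted in at least some mouse tissues, of which 40 were tested. The list shares genes with the neighbors above, so the counts are not separate. Igf2, Usp29, Copg2, Ddc and Pon2 are in both, each with an unadjusted P value under 0.05 by limma. None of the 40 passed by limma or by the test on single rows, and 12 had an unadjusted P value under 0.05 by limma, 8 of them lower and 4 higher in Dio3-/- hearts. Over all tested genes, 19.7% had such a P value and 4.46% had it with a lower level. The median log2 difference of the 40 was −0.06, and 26 of 40 (65.0%) were below 0, against 36.1% of all tested genes. The most abundant were Igf2, Gnas and Cdkn1c. Gnas, which encodes a G protein subunit, had means of 940 RPKM (CV 0.06) and 879 RPKM (CV 0.02) and a log2 difference of −0.10 (adjusted P = 0.425 by limma). Cdkn1c, an inhibitor of the cell cycle and of fetal growth, had means of 342 RPKM (CV 0.25) and 252 RPKM (CV 0.07) and a log2 difference of −0.44 (95% interval −0.78 to −0.10, adjusted P = 0.16 by limma). Igf2r, the receptor that clears IGF2, had means of 242 RPKM (CV 0.08) and 243 RPKM (CV 0.04).

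Several of these genes, named after their values were seen, shared the wide Dio3+/+ spread of Peg10, Nnat and Peg3. In the domain that holds Dio3, Dlk1, Meg3, Rian, Mirg and Rtl1 had Dio3+/+ CVs from 0.49 to 0.85 and Dio3-/- CVs from 0.07 to 0.32. Their log2 differences ran from −0.87 to −0.71 and none passed the test, with adjusted P values from 0.215 to 0.411 by limma. Slc38a4, an amino acid transporter gene, was the only one of the 40 whose hearts could not overlap, against 3.95% of all tested genes in either direction. Its means were 80.8 RPKM (CV 0.03) and 89.1 RPKM (CV 0.01), a log2 difference of 0.14 (95% interval 0.05 to 0.23, adjusted P = 0.0967 by limma).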

How the data were processed

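The 10 genes and all gene lists were chosen with earlier results of these data known. The authors aligned reads with NovoAlign (version 2.08), kept uniquely mapping reads and scaled each sample linearly by its total reads, per the Methods and the submitters' processing notes. The genome build is not given in the sources used here. For each UCSC known-gene transcript the authors deposited genotype means with 2 decimals, taken as RPKM because the Methods filter on that unit, and coefficients of variation, each the ratio of an SD to its mean. Their columns of fold changes and q values were not used.

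For each row, log2(mean + 0.5) was taken, and its SD was the SD in RPKM divided by (mean + 0.5) and by the natural log of 2. Limma (version 3.58.1, under R version 4.3.3) moderated the pooled variance, with 6 residual and 3.52 prior degrees of freedom, along a trend on the mean. The Benjamini-Hochberg adjustment ran over 32703 rows whose mean exceeded 1 RPKM in either genotype. All tests were two-sided, and log2 differences understate the change of low genes. Each gene was described by its row with the highest mean. The fit was tested on simulated data. The genes named were all 10 with all their rows, Dio3, hosted microRNAs and neighbors above 1 RPKM. From other lists, some that passed or had the highest means were named, and others are said to be chosen later. Tubb3, of the autonomic neuron and glia list, also passed, with a log2 difference of 0.65 (adjusted P = 0.00856 by limma). A list of genes that respond to thyroid hormone was also fitted and is not described here. Motifs were counted on both strands of RefSeq promoter windows (Python version 3.11.15). The table holds no depths and no values of single hearts, so p-values rest on the deposited spread between 4 hearts per genotype. The alternatives were other pseudocounts (0.1 and 1), no filter, a mean over both genotypes above 5 RPKM, no trend, 1 row per gene, Welch's test, which the Methods name, centering, and a raised coefficient of variation.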

Additional observations from a re-analysis of the deposited data

How the results depend on the processing

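Of 109 values of the 10 genes under the alternatives, 105 kept their direction and their side of the threshold. Mest lost its call in 3 of 11 alternatives, with adjusted P values by limma or Welch's test from 0.0363 to 0.133 over all of them, and kept a log2 difference from −0.31 to −0.27. The number of the 10 genes that passed was thus 0 without a filter on low values, with Welch's test and with the coefficient of variation raised by its rounding error, and 1 otherwise. The paper's own list of differentially expressed genes holds Mest, as lower in Dio3-/- hearts. That list comes from the same hearts, so it is not independent of the result here. Welch's test, which the Methods name, gave Mest an adjusted P value of 0.133 here. The sign turned for Grb10 in its lowest transcript row (a log2 difference of 0.007). Counted by any of its transcript rows, not by its highest row alone, 379 genes passed over the whole table (317 higher, 62 lower in Dio3-/- hearts). This count was 221 without a filter, 32 with Welch's test, 197 after centering (140 higher, 57 lower) and 206 with the raised coefficient of variation. None of the 40 other imprinted genes passed under any alternative run, including Welch's test, and 12 had an unadjusted P value under 0.05 by limma. The causes of these changes were not tested. No paired analysis was possible because the table holds genotype means and no values for single hearts, and for the same reason no heart could be left out. The table gives no depth per heart, so no limit was drawn from depth.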

Other observations

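Genes of insulin and IGF signaling, the pathway that Grb10 damps, numbered 18, Grb10 and Igf2 among them, of which 17 were tested. None passed by limma or by Welch's test, and 6 had an unadjusted P value under 0.05 by limma, 3 lower and 3 higher in Dio3-/- hearts, against 19.7% of all tested genes in either direction. Named after the values were seen, Irs2, an adaptor of the insulin receptor, had means of 12.97 RPKM (CV 0.11) and 9.02 RPKM (CV 0.16), a log2 difference of −0.50 (95% interval −0.76 to −0.25, adjusted P = 0.058 by limma). The insulin receptor gene Insr had means of 22.1 RPKM (CV 0.12) and 26.8 RPKM (CV 0.07), a log2 difference of 0.27 (adjusted P = 0.126 by limma). Igf1r, the receptor of IGF1, had a log2 difference of 0.05 (95% interval −0.07 to 0.18).

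Factors that keep or read imprints numbered 17, of which 16 were tested. None passed by limma or by Welch's test, and 1 had an unadjusted P value under 0.05 by limma, against 19.7% of all tested genes. This was the cohesin gene Rad21, with means of 103 RPKM (CV 0.03) and 111 RPKM (CV 0.02) and a log2 difference of 0.11 (adjusted P = 0.208 by limma). Of the rest, named for their level or after the values were seen, Trim28, the corepressor that ZFP57 recruits, had means of 99.1 and 96.0 RPKM. Zfp57 itself had means of 15.2 RPKM (CV 0.26) and 12.85 RPKM (CV 0.02), a log2 difference of −0.23 (95% interval −0.57 to 0.10, adjusted P = 0.448 by limma). Dnmt1, which copies DNA methylation, had means of 38.4 and 39.4 RPKM.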
